A study of Rattus norvegicus with 9 samples.

Results

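The BNPMT intervention in doxorubicin-treated rat nucleus pulposus cells was described by 6 poly(A) RNA-seq libraries, 3 of cells treated with doxorubicin alone (SEN 1 to 3) and 3 of cells treated with doxorubicin and BNPMT (BNPMT 1 to 3). They were taken by their sample titles from the 9 libraries of the series, and all 22324 genes of the count table were members, of which 14956 passed a filter on low counts and were tested. Per the labels, primary nucleus pulposus cells of wild-type genotype were cultured in high-glucose DMEM with 10% serum, exposed to 200 nM doxorubicin for 24 h and kept for 6 more days in new medium, which was done to make them senescent. The labels do not spell out BNPMT and give neither its dose nor its timing, and for the BNPMT and SEN libraries they carry the same doxorubicin text. The series' title names mitochondrial outer membrane stability and extracellular DNA as the targets of the strategy, for use against disc degeneration. The other 3 libraries, named NC, are wild-type nucleus pulposus cells taken as the untreated control from the title and the design text, although their protocol text also mentions doxorubicin. NC levels are given beside SEN and BNPMT as a description. Nothing in the labels says whether the 3 libraries of a group came from separate cultures or animals, so p-values rest on how far these libraries lie apart, and that spread may be technical.

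The nucleus pulposus is the soft centre of a spinal disc, and its cells make a cartilage-like matrix of aggrecan and type II collagen. Doxorubicin is an anthracycline that traps topoisomerase II on DNA and breaks the strands. Lasting DNA damage activates p53, which raises the cell cycle inhibitor p21 (Cdkn1a), and cells that stay arrested become senescent, lose lamin B1 and secrete cytokines, growth factors and proteases. Immediate early genes are transcription factors and phosphatases whose messages are made within minutes of a stimulus and are short-lived. Heat shock genes encode chaperones under the control of HSF1, which acts when proteins misfold.

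The 6 libraries held 31206834 to 41971877 counts on genes. SEN libraries held 18954 to 19321 genes with at least 1 count and BNPMT libraries 17481 to 17738. The groups differed in how counts were spread over genes: the 100 most abundant genes held 29.4% ± 0.237 of the counts in SEN and 23.9% ± 0.157 in BNPMT (mean ± SD, n = 3 per group here and throughout). Mitochondrially encoded genes held 2.27% ± 0.0326 in SEN and 3.96% ± 0.157 in BNPMT, and 4.19% ± 0.0619 in NC. For these 2 shares an exact 2-sided permutation test gave p = 0.1, the smallest that 3 against 3 libraries allow, and 0.117 after adjustment over 7 shares. Nucleus pulposus and notochord markers were checked in the same libraries: of 24 in the table, 20 were tested, and the cartilage matrix genes Acan and Col2a1 were abundant in all 6 libraries. The notochordal markers Tbxt, with 5 counts summed over the SEN libraries and 5 over the BNPMT libraries, and Krt18, with 16 and 2, were near 0. The most abundant gene was Col1a1, a collagen of fibroblasts and of the outer disc.

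All genes were compared with 2 scalings side by side. Total-count scaling divides a gene's count by all counts of the library, which gives a level in CPM, whereas TMM (trimmed mean of M values) chooses a factor for each library so that the middle of the genes does not move. The TMM factors averaged 0.802 in SEN and 1.137 in BNPMT, so that the change of the median tested gene with total counts lay 0.50 above that with TMM on the log2 scale (from 0.15 to 0.51 above over the tested genes). All changes are BNPMT minus SEN on the log2 scale, and a gene was called at an adjusted p below 0.05 in edgeR's quasi-likelihood test, Benjamini-Hochberg adjusted over all tested genes. Under TMM, 6092 genes were higher in BNPMT (40.7% of those tested) and 5969 lower (39.9%), and the median change was 0.02. With total counts, 8575 genes were higher (57.3%) and 3857 lower (25.8%), and the median change was 0.52. Both scalings called 6092 genes higher and 3857 lower. Of the other genes lower under TMM, 1556 were not called with total counts and 556 were called higher, and 1927 genes were higher with total counts alone. No gene was higher under TMM and lower with total counts, which was fixed beforehand, since total counts moved the change of every tested gene up. A change of at least 2-fold was seen under TMM in 2605 genes called higher and 3294 called lower, and with total counts in 4883 and 2294. Since 4 in 5 genes were called (80.6% under TMM and 83.1% with total counts), the counts of each gene group below are read against the percentages of all tested genes.

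**Figure D1:**
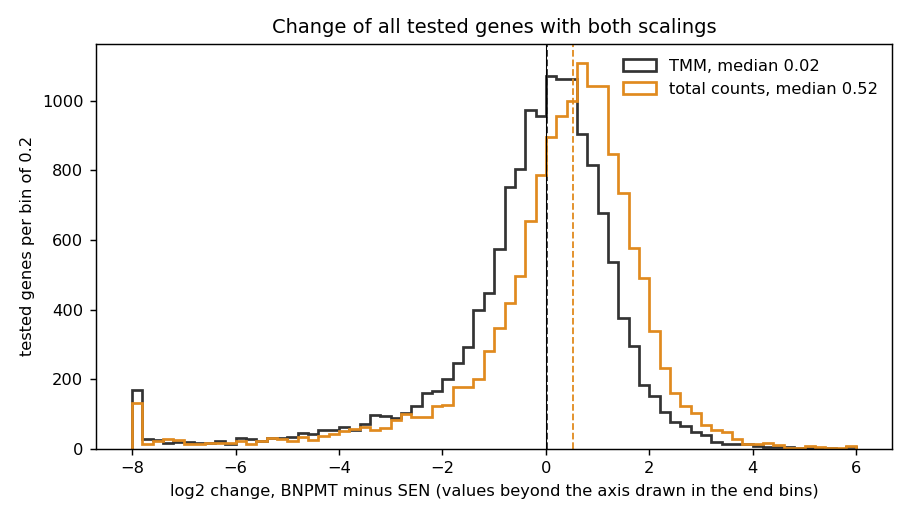
Number of tested genes (vertical axis) in bins of 0.2 of the log2 change from SEN to BNPMT (horizontal axis) under TMM (dark) and with total counts (orange), with dashed lines at the medians. The curve for total counts has the same shape as that for TMM and lies to its right, with its median at 0.52 against 0.02, and both have a longer tail on the left.

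The tails of the distribution were unequal. Under TMM, 716 genes (4.79%) fell by 16-fold or more and 35 (0.234%) rose by as much, and all of these were called on the same side with total counts and had no overlap of CPM between the groups. Their direction could not differ between the scalings, since total counts moved each log2 change by 0.51 at most. A lack of overlap was common: of all tested genes, 57.3% had every BNPMT library above every SEN library in CPM, and 25.2% had every BNPMT library below. The genes with the large falls were mostly rare in BNPMT and in NC: 634 of the 716 averaged under 1 CPM in BNPMT and 620 in NC, and their median levels were 1.92 CPM in SEN, 0.0341 in BNPMT and 0.0423 in NC. Together they held 3.83% of the counts in SEN, 0.155% in BNPMT and 0.253% in NC. Of the 716, 170 were non-coding genes, which is 17.0% of the tested non-coding genes, and 546 were protein-coding, which is 3.91% of the tested protein-coding genes. Non-coding genes as a whole held 0.564% ± 0.0105 of the counts in SEN, 0.279% ± 0.0022 in BNPMT and 0.332% ± 0.0011 in NC. The 35 genes with the large rises had median levels of 0.0308 CPM in SEN, 1.46 in BNPMT and 0.856 in NC.

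**Figure D2:**
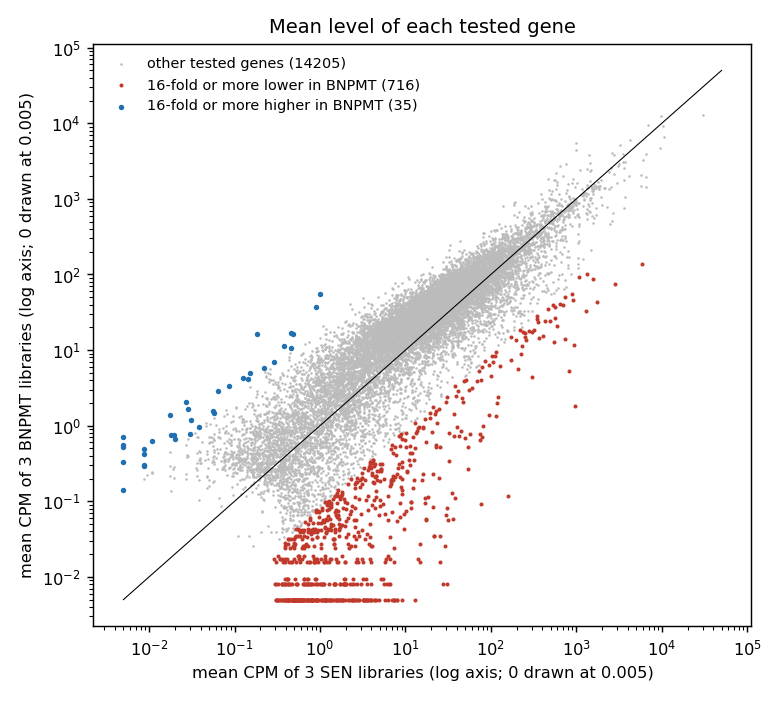
Mean CPM of each tested gene in the 3 SEN libraries (horizontal log axis) and the 3 BNPMT libraries (vertical log axis), with the line of equal levels. The 716 genes at least 16-fold lower in BNPMT (red) reach from rare genes to some of the most abundant ones in SEN, whereas the 35 genes at least 16-fold higher (blue) were all under 1 CPM in SEN.

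Immediate early genes were the list with the largest fall among those with 10 or more tested members. Of its 36 members in the table, 36 were tested, and 35 of these were lower in BNPMT and 1 higher under TMM (median change -3.80, beside 0.02 over all tested genes). With total counts 33 were lower and 1 higher (median -3.30, beside 0.52). The AP-1 subunit gene Fosb had 935, 947 and 976 CPM in SEN 1 to 3 and 2.34, 1.65 and 1.501 CPM in BNPMT 1 to 3, and 2.46, 3.04 and 3.2001 CPM in NC. Its change was -9.52 ± 0.12 under TMM (adjusted p = 7.64e-16) and -9.01 ± 0.12 by total counts (adjusted p = 3.7e-15). Egr1, a zinc finger factor induced by serum and stress, had 5800.3, 5791 and 6109 CPM in SEN 1 to 3 and 141, 142 and 136 CPM in BNPMT 1 to 3, a change of -5.90 ± 0.061 under TMM (adjusted p = 5.49e-16) and -5.40 ± 0.058 by total counts (adjusted p = 1.36e-15). Every SEN library lay above every BNPMT library for both genes, and Egr1 had 156, 146 and 147 CPM in NC. The related factor Egr4 had 28.4, 24.8 and 23.2 CPM in SEN 1 to 3 and 0, 0.05699 and 0.0477 CPM in BNPMT 1 to 3 and a change of -9.92 ± 0.26 under TMM. Atf3, a stress-induced repressor, went from 735 to 14.2 CPM (change -6.19), Fos from 547 to 12.8 CPM (-5.92) and Jun from 1046 to 121 CPM (-3.61). Klf4, a Krüppel-like factor, went from 492 to 24.2 CPM (-4.85), and the phosphatase gene Dusp1, which switches off MAP kinases, from 805 to 121 CPM (-3.23). The 1 member that rose was Ccn1, a matricellular protein and YAP target, at 306 ± 12.3 CPM in SEN and 662 ± 20.03 in BNPMT (change 0.61). Jund and Fosl2, called lower under TMM, were not called with total counts (changes -0.03 and -0.05).

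Heat shock genes were lower in BNPMT as well. Of 31 tested members, 27 were lower and 0 higher under TMM (median -1.47), and 21 were lower and 6 higher with total counts (median -0.97). The inducible HSP70 gene Hspa1a had 980.3, 897 and 927 CPM in SEN 1 to 3 and 10.6, 12.3 and 11.8 CPM in BNPMT 1 to 3, with 10.7, 10.1 and 10.2 CPM in NC. Its change was -6.84 ± 0.08 under TMM (adjusted p = 6.12e-16) and -6.34 ± 0.074 by total counts (adjusted p = 1.61e-15). Its near-identical copy Hspa1b went from 817 to 5.36 CPM, and how reads were split between the pair is uncertain. Hsph1, an HSP70 nucleotide exchange factor, had 1063, 1055 and 1095 CPM in SEN 1 to 3 and 100.04, 85.4 and 90.2 CPM in BNPMT 1 to 3 and a change of -4.05 ± 0.062 under TMM and -3.54 ± 0.063 with total counts. The constitutive chaperone Hspa8, among the most abundant genes of SEN, went from 6573 ± 74.4 to 1432 ± 21.9 CPM (change -2.70), with 1379 ± 19.1 in NC. The polyubiquitin gene Ubb went from 2671 to 659 CPM (change -2.52). Together the immediate early and heat shock genes held 4.25% ± 0.0938 of all counts in SEN, 0.979% ± 0.0112 in BNPMT and 0.89% ± 0.00388 in NC. Dnajb1, an HSP40 co-chaperone, went from 419.97 to 61.02 CPM (-3.29).

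Promoter stretches of RefSeq (build GRCr8, 250 bases before the annotated start) are shown for 1 gene of each of these 2 lists. These genes were taken because their stretches hold a known motif of the factor class named for them. Such stretches were matched by gene ID for 11982 of the 14956 tested genes. Hsph1 holds a heat shock element, searched as 3 blocks, GAA and TTC in turn, each 2 bases from the next, and Egr2 a CArG box, the element of serum response factor (CC, 6 bases of A or T, GG). Both strands were searched. Both were chosen for their matches after these were seen, and capitals mark the match.
Hsph1 (chr12:10427118-10427367, + strand): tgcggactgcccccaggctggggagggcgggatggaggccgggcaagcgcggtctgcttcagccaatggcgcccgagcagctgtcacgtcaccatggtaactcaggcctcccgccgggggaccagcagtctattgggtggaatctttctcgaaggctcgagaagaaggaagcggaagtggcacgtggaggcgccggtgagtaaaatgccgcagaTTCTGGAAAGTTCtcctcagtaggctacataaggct
Egr2 (chr20:21054442-21054691, - strand): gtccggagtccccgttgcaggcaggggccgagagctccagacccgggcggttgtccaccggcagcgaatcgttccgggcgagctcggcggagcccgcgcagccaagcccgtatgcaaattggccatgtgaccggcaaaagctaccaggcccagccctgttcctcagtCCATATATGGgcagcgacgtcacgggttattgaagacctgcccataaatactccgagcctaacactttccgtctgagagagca
The heat shock element of Hsph1 lies 36 to 24 bases before the start, and the CArG box of Egr2 83 to 74 bases before it. A heat shock element was found in 4 of the 25 heat shock genes with a promoter (Hspa8, Hspd1, Hspe1 and Hsph1), beside 0.384% of all tested genes and 0.597% of all 27457 promoters of that length. A CArG box was found in 5 of the 24 immediate early genes with a promoter (Dusp5, Egr1, Egr2, Klf6 and Zfp36), beside 1.22% of all tested genes and 1.5% of all promoters. The cyclic AMP response element TGACGTCA was also found in 5 of the 24 (Btg2, Dusp1, Ier2, Jund and Maff), beside 2.78% of all tested genes and 1.7% of all promoters. The stretches of Hspa1a, Fosb and Egr4 held none of these 3 motifs. In all 6 motifs were searched, and the other 3 were the AP-1 site TGANTCA, the CCAAT box CCAAT and the GC box GGGCGG. Among the immediate early genes they were found in 0, 8 and 15 of 24, beside 4.68%, 35.4% and 56.0% of all tested genes, and among the heat shock genes in 2, 14 and 18 of 25. Under TMM, heat shock genes with a heat shock element had a median change of -1.65, and those without it -1.42. For immediate early genes the medians were -3.89 with a CArG box and -3.44 without. With the cyclic AMP response element the median was -3.23, and without it -3.89. A part of these motifs in the falls was not tested.

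Genes of other stress responses fell in part. In the NRF2 and antioxidant list, 13 of 45 tested members were higher and 21 lower under TMM (median -0.18), and 24 were higher and 14 lower with total counts (median 0.33). The members that fell most were targets of NRF2: Hmox1, which breaks down heme, had 2962, 2772 and 2830.5 CPM in SEN 1 to 3 and 69.5, 79.1 and 77.2 CPM in BNPMT 1 to 3 (change -5.75 ± 0.073 under TMM (adjusted p = 7.64e-16) and -5.25 ± 0.065 by total counts (adjusted p = 1.64e-15)). Osgin1 went from 22.9 to 0.556 CPM (change -5.86), the sulfiredoxin gene Srxn1 from 305 to 17.4 CPM (-4.63) and Txnrd1, a thioredoxin reductase, from 865 to 102 CPM (-3.59). Gclc, which limits the rate of glutathione synthesis, went from 212 to 33.05 CPM (-3.18). Members that rose included the peroxiredoxin gene Prdx5 (114 to 389 CPM, change 1.26), the glutathione peroxidase gene Gpx1 (138 to 344 CPM, 0.81) and Keap1, which marks NRF2 for degradation (10.4 to 43.8 CPM, 1.56). In the list of the ER stress and amino acid response, 6 of 45 tested members were higher and 31 lower under TMM (median -0.61), and 15 were higher and 23 lower with total counts (median -0.11). The ER chaperone gene Hspa5 had 3888, 3591 and 3760.4 CPM in SEN 1 to 3 and 1048, 1076 and 1099 CPM in BNPMT 1 to 3 (change -2.30 ± 0.053 under TMM (adjusted p = 1.37e-13) and -1.80 ± 0.048 by total counts (adjusted p = 1.2e-12)), and 1368, 1376 and 1380.1 CPM in NC. Dnajb9, Ern1, which encodes the stress sensor IRE1, and Ppp1r15a, which restores translation, changed by -4.66, -4.30 and -3.63. Syvn1 and Psph rose (1.07 and 0.93).

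**Figure D3:**
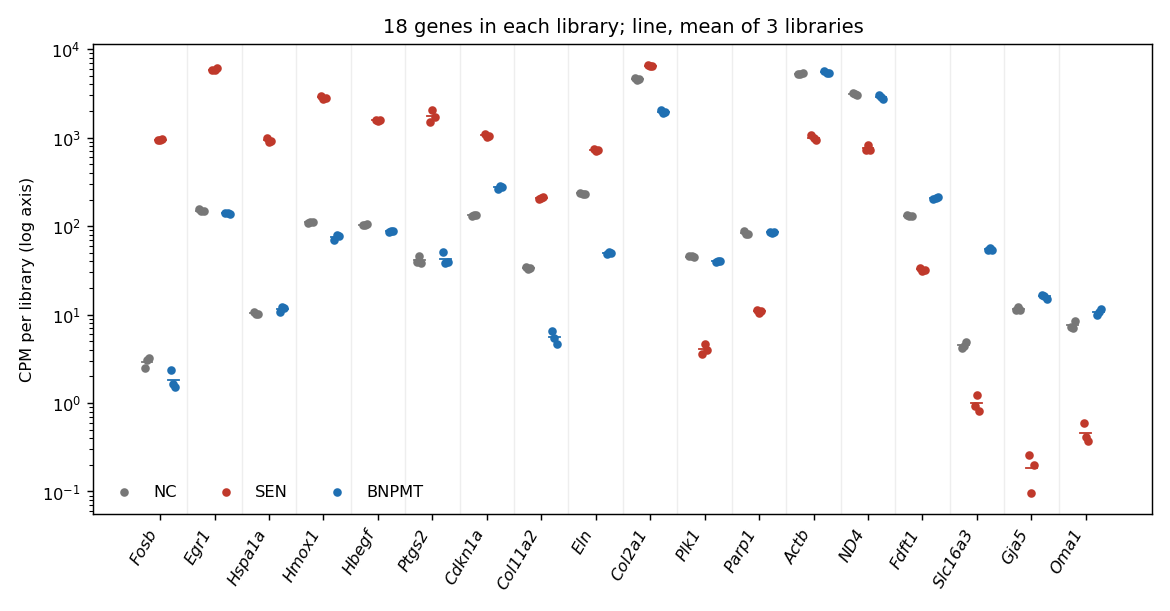
CPM of 18 genes in each library (vertical log axis), in NC (grey), SEN (red) and BNPMT (blue), with a line at the mean of each group. The SEN points of the first 10 genes lie above the BNPMT points and those of the other 8 lie below them, with no overlap in any of the 18. Most tested genes had no overlap (57.3% with BNPMT above SEN and 25.2% with BNPMT below).

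Of the genes that p53 activates, 22 of 38 tested were lower and 9 higher under TMM (median -0.52), and 16 were lower and 18 higher with total counts (median -0.02). Cdkn1a had 1109, 1018 and 1057 CPM in SEN 1 to 3 and 263, 284 and 279 CPM in BNPMT 1 to 3, a change of -2.45 ± 0.058 under TMM (adjusted p = 1.96e-13) and -1.95 ± 0.053 by total counts (adjusted p = 1.41e-12). BNPMT lay below SEN in every library, and NC was lower again, at 131, 135 and 132 CPM. Mdm2, the p53 ubiquitin ligase, went from 824 ± 21.6 to 169.9 ± 3.503 CPM (change -2.78), with 70.8 ± 2.85 in NC. Plk2 and Gdf15, a stress-induced secreted factor, changed by -4.40 and -4.13. The antiproliferative gene Btg2, which is also an immediate early gene, went from 754 to 68.7 CPM (-3.96), and the kinase gene Plk3 from 139.9 to 16.9 CPM (-3.55). Members that rose included Sesn1 (5.87 to 26.3 CPM, change 1.66), the death receptor gene Fas (8.102 to 35.6 CPM, 1.63) and the repair factor gene Xpc (9.04 to 29.2 CPM, 1.19). Cdkn2a, which encodes the senescence markers p16 and Arf, was higher in BNPMT, with 9.98, 9.61 and 11.2 CPM in SEN 1 to 3 and 20.2, 25.96 and 23.1 CPM in BNPMT 1 to 3 and 10.8, 10.7 and 11.1 CPM in NC. Its change was 0.66 ± 0.10 under TMM (adjusted p = 3.98e-05) and 1.17 ± 0.10 by total counts (adjusted p = 8.84e-08). Glb1, the gene of the senescence-associated beta-galactosidase, changed by -0.85 ± 0.062 under TMM and -0.34 ± 0.058 with total counts.

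Genes of G2 and mitosis were higher in BNPMT. Of 59 tested members, 46 were higher and 10 lower under TMM (median 0.76), and 50 were higher and 5 lower with total counts (median 1.26). The mitotic kinase gene Plk1 had 3.57, 4.71 and 3.96 CPM in SEN 1 to 3 and 39.5, 40.3 and 40.1 CPM in BNPMT 1 to 3, and 46.04, 45.6 and 44.4 CPM in NC. Its change was 2.80 ± 0.088 under TMM (adjusted p = 3.47e-12) and 3.30 ± 0.089 by total counts (adjusted p = 1.29e-12). Ccnb1 and Cdk1, which encode the mitotic cyclin B1 and its kinase, went from 9.498 to 61.4 CPM and from 13.5 to 83.3 CPM (changes 2.19 and 2.12). Cdc20, an activator of the anaphase-promoting complex, and Kif20a, a kinesin of cytokinesis, went from 10.8 to 63.9 CPM and from 16.9 to 82.2 CPM (2.06 and 1.78). Top2a, whose product is the target of doxorubicin, went from 25.4 to 83.5 CPM (1.22). Not all proliferation markers rose: Mki67 had 87.7, 99.8 and 101 CPM in SEN 1 to 3 and 89.5, 77.2 and 84.9 CPM in BNPMT 1 to 3, and its change was -0.70 ± 0.066 under TMM (adjusted p = 2.62e-07) and -0.20 ± 0.069 by total counts (adjusted p = 0.0173). In the list of S phase and DNA replication, 14 of 53 tested members were higher and 20 lower under TMM (median -0.04), and 39 were higher and 11 lower with total counts (median 0.46). Under TMM 26.4% were higher and 37.7% lower, beside 40.7% and 39.9% of all tested genes. With total counts 73.6% were higher and 20.8% lower, beside 57.3% and 25.8%. Changes ranged from -3.27 to 1.37 under TMM, and Ccne1, Ccne2, Pcna and Slbp are examples of those that fell. The G1/S cyclin genes Ccne1 and Ccne2 changed by -2.20 and -3.14, and the sliding clamp gene Pcna, also a p53 target, went from 412 to 80.9 CPM (-2.85), with 80.5 CPM in NC. Slbp, which binds histone messages, went from 288 to 42.5 CPM (-3.27). In the DNA repair list, 24 of 43 tested members were higher and 10 lower under TMM (median 0.24), and 32 were higher and 5 lower with total counts (median 0.74). Parp1, which senses strand breaks, had 11.3, 10.5 and 10.9998 CPM in SEN 1 to 3 and 86.96, 84.5 and 86.4 CPM in BNPMT 1 to 3, and 87.6, 81.9 and 81.8 CPM in NC. Its change was 2.47 ± 0.062 under TMM (adjusted p = 3.32e-13) and 2.98 ± 0.062 by total counts (adjusted p = 1.2e-13). The end-joining gene Xrcc5 changed by 0.94. Lmnb1, the gene of lamin B1, had 13.1, 13.7 and 11.5 CPM in SEN 1 to 3 and 49.8, 46.99 and 52.9 CPM in BNPMT 1 to 3 (change 1.46 ± 0.076 under TMM (adjusted p = 5.54e-10) and 1.97 ± 0.076 by total counts (adjusted p = 3.33e-11)).

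Most genes of secreted factors that senescent cells release were lower in BNPMT, although the summed CPM of the list was not. That sum is scaled by total counts alone and was not taken under TMM, so its direction holds for that scaling only. Of 51 tested members, 37 were lower and 10 higher under TMM (median -1.61), and 31 were lower and 13 higher with total counts (median -1.12). The summed level of the list was 9720 to 9950 CPM in SEN, 9990 to 10300 in BNPMT and 7630 to 7650 in NC. The growth factor gene Hbegf, a ligand of the EGF receptor, had 1585, 1527 and 1585 CPM in SEN 1 to 3 and 86.96, 87.7 and 88.8 CPM in BNPMT 1 to 3 (change -4.66 ± 0.055 under TMM (adjusted p = 6.12e-16) and -4.16 ± 0.051 by total counts (adjusted p = 1.64e-15)). The chemokine gene Cxcl1 had 109.8, 108 and 103 CPM in SEN 1 to 3 and 6.31, 6.75 and 7.91 CPM in BNPMT 1 to 3, and 2.46, 2.42 and 3.08 CPM in NC (change -4.44 ± 0.095 under TMM and -3.93 ± 0.094 with total counts). Il6 was rare in all groups, with 2.71, 2.596 and 3.45 CPM in SEN 1 to 3 and 0.478, 0.484 and 0.548 CPM in BNPMT 1 to 3 (change -3.03 ± 0.38 under TMM). Tnf was not counted in any BNPMT library and averaged 3.82 ± 0.354 CPM in SEN, so that it was at least 50.2-fold lower in BNPMT against a floor of 3 counts per library. Plaur, the urokinase receptor, and Lif changed by -4.47 and -3.62. Members that rose included Spp1, which encodes osteopontin (1415 ± 16.04 to 3805 ± 155 CPM, change 0.93). Cxcl12 and Hgf, ligands of CXCR4 and MET, changed by 1.90 and 3.76. Of NF-kappaB targets, 6 of 32 tested members were higher and 21 lower under TMM (median -0.86), and 10 were higher and 18 lower with total counts (median -0.36). Ptgs2, which makes prostaglandins, had 1519, 2048 and 1707 CPM in SEN 1 to 3 and 50.7, 38.6 and 39.4 CPM in BNPMT 1 to 3, and a change of -5.86 ± 0.14 under TMM (adjusted p = 1.68e-13) and -5.36 ± 0.14 by total counts (adjusted p = 9.1e-13). The feedback inhibitor genes Tnfaip3 and Nfkbia changed by -4.36 and -3.16, and the inhibitor gene Tnip1 rose (1.29). Rel, an NF-kappaB subunit, went from 51.3 to 3.97 CPM (-4.20). Cxcl1, Cxcl2, Ccl2, Icam1 and Il6 stand in both lists.

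Matrix-degrading proteases moved in both directions, and 16 of 39 tested members were higher and 21 lower under TMM (median -0.36), and 19 were higher and 15 lower with total counts (median 0.14). Mmp13, the collagenase of cartilage, had 37.2, 45.6 and 39.6 CPM in SEN 1 to 3 and 14.2, 15.3 and 15.5 CPM in BNPMT 1 to 3, and 9.996, 9.46 and 9.93 CPM in NC (change -1.95 ± 0.084 under TMM and -1.44 ± 0.084 with total counts). Mmp3 had 104, 98.7 and 101 CPM in SEN 1 to 3 and 81.1, 90.04 and 89.3 CPM in BNPMT 1 to 3; its change was -0.73 ± 0.061 under TMM (adjusted p = 8.74e-08) and -0.22 ± 0.058 by total counts (adjusted p = 0.00286). Adamts1 and Adam19 rose from 187 to 841 CPM and from 46.5 to 199 CPM (changes 1.67 and 1.60). Adamts3 and Adamts2, which trim procollagens, fell from 19.1 to 2.72 CPM and from 41.2 to 19.7 CPM (-3.31 and -1.57), and Adam17, the sheddase of TNF, from 215 to 134 CPM (-1.19). Adamts5, an aggrecanase, had 8.99, 9.23 and 10.1 CPM in SEN 1 to 3 and 23.2, 14.8 and 15.5 CPM in BNPMT 1 to 3, with BNPMT 1 the highest, and 45.02, 36.5 and 35.1 CPM in NC (change 0.42 ± 0.15 under TMM, adjusted p = 0.023, and 0.92 ± 0.16 with total counts). Its call under TMM rested on single libraries: without BNPMT 1 the change was 0.20 (adjusted p = 0.108), and without SEN 1 and without SEN 2 it was 0.39 and 0.40 (adjusted p = 0.0613 and 0.0571). The call was also lost with DESeq2 size factors (adjusted p = 0.0509).

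Genes of the cartilage-type matrix were lower in BNPMT than in SEN. Of 41 tested members, 37 were lower and 0 higher under TMM (median -2.10), and 36 were lower and 4 higher with total counts (median -1.59). The summed level of the list was 23500 to 25200 CPM in SEN, 7590 to 8670 in BNPMT and 14400 to 15100 in NC. Col2a1 had 6574, 6406 and 6498 CPM in SEN 1 to 3 and 2056, 1883 and 1947 CPM in BNPMT 1 to 3, and 4690.1, 4453 and 4570.1 CPM in NC, so that its BNPMT libraries were the lowest of the 9. Its change was -2.23 ± 0.05 under TMM (adjusted p = 1.22e-13) and -1.73 ± 0.049 by total counts (adjusted p = 2.13e-12). Acan had 644, 689 and 712 CPM in SEN 1 to 3 and 358, 304 and 304 CPM in BNPMT 1 to 3, and 599, 583 and 580.03 CPM in NC, with the same order of groups except that SEN and NC lay closer together. Its change was -1.58 ± 0.064 under TMM and -1.08 ± 0.067 with total counts. Col11a2, a chain of the collagen that seeds type II fibrils, had 203, 205 and 214 CPM in SEN 1 to 3 and 6.55, 5.41 and 4.65 CPM in BNPMT 1 to 3 (change -5.73 ± 0.10 under TMM), and 34.6, 32.7 and 33.5 CPM in NC. The small proteoglycan genes Fmod and Ogn went from 626 to 99.6 CPM and from 1050.2 to 166 CPM (changes -3.16 and -3.16), and Comp from 60.2 to 3.18 CPM (-4.75). Col9a2 and Matn3, a type IX collagen chain and a matrilin, went from 66.5 to 5.98 CPM and from 84.2 to 7.27 CPM (-3.98 and -4.04). Sox9, the transcription factor of chondrocytes, went from 30.97 ± 2.49 to 22.04 ± 0.427 CPM (change -0.99 ± 0.069 under TMM and -0.49 ± 0.071 with total counts), with 31.5 ± 0.799 in NC. Of the separate chondrocyte markers, which share Col10a1, Matn1 and Matn3 with the matrix list, 8 of 10 were lower and 0 higher under TMM, and 7 and 2 with total counts. Capn6, Frzb, a Wnt antagonist, and Ihh, the hedgehog ligand of growth plates, changed by -3.12, -1.76 and -7.20. Ihh changed by -6.61 without BNPMT 1 and by -8.34 without BNPMT 3. RNA from bulk cultures does not tell fewer cells of a type from less RNA per cell.

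Collagens and elastic fibre genes of fibroblasts also fell: 2 of 37 tested members were higher and 29 lower under TMM (median -0.78), and 9 were higher and 24 lower with total counts (median -0.27). Col1a1 had 30703, 30338 and 30507 CPM in SEN 1 to 3 and 14331, 12289.5 and 12496 CPM in BNPMT 1 to 3, and 31120.4, 29905 and 30323 CPM in NC. This was the largest loss in CPM of any gene, with a change of -1.73 ± 0.058 under TMM (adjusted p = 6.46e-12) and -1.23 ± 0.058 by total counts (adjusted p = 2.19e-10). The elastin gene Eln had 747, 713 and 734 CPM in SEN 1 to 3 and 48.9, 51.2 and 49.1 CPM in BNPMT 1 to 3, and 239, 233 and 234 CPM in NC (change -4.38 ± 0.057 under TMM). Mfap4, a microfibril protein, went from 323 to 18.3 CPM (-4.65), and the matricellular gene Sparc from 9605 ± 329 to 4712 ± 115 CPM (-1.53). Col14a1 and Mfap2 went from 3586 to 761 CPM and from 98.1 to 22.9 CPM (-2.74 and -2.60). Collagen chain genes together held 7.55% ± 0.138 of all counts in SEN, 3.61% ± 0.315 in BNPMT and 7.05% ± 0.144 in NC. Fibronectin (Fn1) had 9119, 10488 and 11126 CPM in SEN 1 to 3 and 10768, 8126 and 8545 CPM in BNPMT 1 to 3; it was called lower under TMM (change -0.67 ± 0.091, adjusted p = 1.17e-05) and was not called with total counts (-0.16 ± 0.095, adjusted p = 0.124).

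Most contractile genes moved the other way, and in smooth muscle and myofibroblast markers 15 of 22 tested members were higher and 4 lower under TMM (median 0.52), and 19 were higher and 1 lower with total counts (median 1.02). Under TMM these members ranged from -1.55 to 2.10, and Myh11, Acta2, Cnn2 and Lmod1 are examples of those that rose. Myh11, the smooth muscle myosin, had 6.82, 7.18 and 6.11 CPM in SEN 1 to 3 and 45.5, 35.6 and 40.9 CPM in BNPMT 1 to 3, and 109, 113 and 109 CPM in NC. Its change was 2.10 ± 0.091 under TMM (adjusted p = 8.47e-11) and 2.60 ± 0.10 by total counts (adjusted p = 1.9e-11), and BNPMT stood between SEN and NC. Acta2, the smooth muscle actin, went from 389 ± 21.2 to 1145 ± 53.5 CPM (change 1.05), with 2387 ± 7.26 in NC. Cnn2, a calponin, and Lmod1, a leiomodin, went from 145 to 442 CPM and from 7.502 to 27.7 CPM (1.10 and 1.38). The cytoskeletal actin Actb had the largest gain in CPM of any gene, with 1071, 999.9 and 938 CPM in SEN 1 to 3 and 5605, 5451 and 5419 CPM in BNPMT 1 to 3 (change 1.95 ± 0.057 under TMM (adjusted p = 1.5e-12) and 2.45 ± 0.055 by total counts (adjusted p = 2.54e-13)), and 5305, 5229 and 5391 CPM in NC. In the list of TGF-beta and YAP targets, 15 of 29 tested members were higher and 11 lower under TMM (median 0.14), and 20 were higher and 5 lower with total counts (median 0.64). Ccn2, the connective tissue growth factor, went from 637 ± 13.04 to 2713 ± 92.04 CPM (1.59), whereas the feedback genes Smad7 and Skil changed by -2.40 and -2.75. Tgfb3, a TGF-beta ligand, and Smad6, an inhibitory SMAD, rose from 101 to 380.5 CPM and from 7.87 to 39.4 CPM (1.41 and 1.82). Of nucleus pulposus and notochord markers, 11 of 20 tested members were higher and 6 lower under TMM (median 0.36), and 13 were higher and 6 lower with total counts (median 0.86). Aqp1, a water channel, Anxa3 and the forkhead factor gene Foxf2 rose from 58.02 to 185 CPM, from 86.7 to 276 CPM and from 12.8 to 41.5 CPM (changes 1.17, 1.17 and 1.19), and the keratin gene Krt8 fell from 5.73 to 2.18 CPM (-1.88).

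Since the series' title speaks of the mitochondrial outer membrane, its genes were taken by role. Among its channels and import proteins, 20 of 31 tested members were higher and 6 lower under TMM (median 0.57), and 26 were higher and 2 lower with total counts (median 1.07). With a trend of change with transcript length taken out, 20 were higher and 10 lower. Of the VDAC channels, through which metabolites and, when they assemble, mitochondrial DNA fragments can pass, Vdac1 had 75.95, 66.5 and 65.2 CPM in SEN 1 to 3 and 156, 159.7 and 156 CPM in BNPMT 1 to 3, and 123, 124 and 126 CPM in NC. Its change was 0.68 ± 0.064 under TMM (adjusted p = 2.54e-07) and 1.18 ± 0.061 by total counts (adjusted p = 5.16e-10). Vdac3 had 111, 105 and 103 CPM in SEN 1 to 3 and 244, 277 and 269 CPM in BNPMT 1 to 3 (change 0.80 ± 0.062 under TMM and 1.31 ± 0.058 with total counts). Vdac2 had 177, 168 and 162 CPM in SEN 1 to 3 and 224, 237 and 249 CPM in BNPMT 1 to 3; its change was -0.02 ± 0.059 under TMM (adjusted p = 0.786) and 0.48 ± 0.057 by total counts (adjusted p = 2.38e-06). The import pore gene Tomm40 and its relative Tomm40l went from 29.5 to 81.3 CPM and from 5.42 to 39.4 CPM (changes 0.96 and 2.34). Tomm5, a small subunit of the import complex, and Mtx1, a metaxin, rose from 11.6 to 47.02 CPM and from 13.3 to 49.6 CPM (1.52 and 1.39). Hk2, a hexokinase that docks on the outer membrane, fell from 254 to 14.8 CPM (-4.60), with 18.4 CPM in NC. In the BCL2 family, which opens or guards the membrane in apoptosis, 8 of 16 tested members were higher and 7 lower under TMM (median 0.09), and 10 were higher and 5 lower with total counts (median 0.59). The pore-forming member gene Bax had 110.1, 109 and 112 CPM in SEN 1 to 3 and 156, 194 and 183 CPM in BNPMT 1 to 3 (change 0.18 ± 0.077 under TMM, adjusted p = 0.0402, and 0.69 ± 0.073 with total counts). The call of Bax under TMM was lost when any 1 of the libraries SEN 1, SEN 2, SEN 3, BNPMT 2 and BNPMT 3 was left out (adjusted p = 0.0605 to 0.161), and its change was -0.08 once a trend of change with transcript length was taken out. With that trend taken out, 7 of the 16 BCL2 family members were higher and 7 lower (median -0.05). The guardian gene Bcl2l1 rose from 19.9 to 73.8 CPM (1.39), whereas Mcl1, another guardian, fell from 485 to 139 CPM (-2.30) and the activator gene Bcl2l11 from 101 to 23.3 CPM (-2.61). Bid, Bmf and Bok, which promote apoptosis, rose from 8.53 to 31.5 CPM, from 4.32 to 33.2 CPM and from 10.5 to 30.7 CPM (1.37, 2.43 and 1.04). Bcl2 itself was rare, with 0.8596, 0.577 and 0.877 CPM in SEN 1 to 3 and 0.4305, 0.285 and 0.0953 CPM in BNPMT 1 to 3 (change -2.02 ± 0.43 under TMM). In mitophagy and mitochondrial dynamics, 13 of 33 tested members were higher and 11 lower under TMM (median 0.04), and 25 were higher and 5 lower with total counts (median 0.54). After removal of the length trend 14 were higher and 15 lower (median -0.09). Under TMM 39.4% of this list were higher and 33.3% lower, beside 40.7% and 39.9% of all tested genes. With total counts 75.8% were higher and 15.2% lower, beside 57.3% and 25.8%. Members ranged from -2.29 to 1.57 under TMM, and Mief1, Mief2, Phb1 and Usp30 are examples of those that rose. The fission receptor genes Mief1 and Mief2 and the prohibitin gene Phb1 rose from 17.1 to 50.1 CPM, from 5.804 to 24.4 CPM and from 44.999 to 135 CPM (1.05, 1.57 and 1.08), and Usp30, a deubiquitinase that opposes mitophagy, from 7.401 to 24.2 CPM (1.21). Tfam, which packs mitochondrial DNA, had 26.1, 21.7 and 22.4 CPM in SEN 1 to 3 and 35.97, 38.8 and 38.6 CPM in BNPMT 1 to 3; its change was 0.19 ± 0.079 under TMM, 0.69 ± 0.077 with total counts and -0.12 after the trend with length was removed. The call of Tfam under TMM was lost when any 1 of NC 3, SEN 2, SEN 3, BNPMT 2 and BNPMT 3 was left out (adjusted p = 0.0513 to 0.149).

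Of the nuclear genes for subunits of oxidative phosphorylation, 63 of 76 were higher and 2 lower under TMM (median 0.66), and 75 were higher and 0 lower with total counts (median 1.16). After removal of the length trend 61 were higher and 11 lower (median 0.45). The complex I gene Ndufs1 had 26.9, 24.6 and 25.8 CPM in SEN 1 to 3 and 96.5, 101 and 94.9 CPM in BNPMT 1 to 3 (change 1.42 ± 0.06 under TMM (adjusted p = 7.2e-11) and 1.92 ± 0.058 by total counts (adjusted p = 3.66e-12)), and the complex II gene Sdha went from 34.7 to 131 CPM (1.41). Atp5f1d, a subunit of ATP synthase, and Ndufv3 went from 48.4 to 211 CPM and from 19.9 to 71.5 CPM (1.62 and 1.34). Cox4i1 and Cycs, the gene of cytochrome c, were the members lower under TMM by the largest amounts (-0.56 ± 0.081 for Cycs and -0.30 ± 0.084 for Cox4i1), and with total counts their changes were -0.06 and 0.20. Of the 13 protein genes of the mitochondrial genome, 8 were higher and 2 lower under TMM, and 11 were higher and 1 lower with total counts. After removal of the length trend 7 were higher and 4 lower. ND4 had 724, 832 and 728 CPM in SEN 1 to 3 and 3005, 2862 and 2771 CPM in BNPMT 1 to 3, and 3174, 3104 and 3078 CPM in NC (change 1.42 ± 0.06 under TMM). COX2 had 944, 1105 and 931 CPM in SEN 1 to 3 and 4056, 4716 and 4332 CPM in BNPMT 1 to 3 (change 1.64 ± 0.076 under TMM and 2.14 ± 0.074 with total counts). ND1 and ND3, complex I subunits like ND4, went from 580.04 to 2223 CPM and from 139 to 812 CPM (1.44 and 2.04). COX1, the most abundant of them, had 9729.8, 9928 and 9845 CPM in SEN 1 to 3 and 13738, 11975 and 11819.5 CPM in BNPMT 1 to 3, and its calls went opposite ways, with -0.16 ± 0.056 under TMM (adjusted p = 0.0194) and 0.35 ± 0.057 by total counts (adjusted p = 6.41e-05). The call of COX1 under TMM was lost when any 1 of SEN 2, SEN 3, BNPMT 2 and BNPMT 3 was left out (adjusted p = 0.0561 to 0.13). ATP8 and ATP6, and ND4L and ND4, overlap in the mitochondrial genome, so reads in the overlap could not be assigned to 1 of them with certainty. Oma1, a protease of the inner membrane that acts when the membrane potential drops, was among the 10 largest rises, with 0.599, 0.417 and 0.368 CPM in SEN 1 to 3 and 10.02, 10.8 and 11.6 CPM in BNPMT 1 to 3, and 7.21, 7.04 and 8.55 CPM in NC (change 4.02 ± 0.18 under TMM (adjusted p = 1.39e-10) and 4.52 ± 0.18 by total counts (adjusted p = 3.68e-11)). Pars2, a mitochondrial tRNA synthetase, went from 0.376 to 11.3 CPM (4.37).

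For the sensing of DNA outside the nucleus, 16 of 22 tested members were higher and 5 lower under TMM (median 0.44), and 17 were higher and 4 lower with total counts (median 0.95). Cgas, the cytosolic DNA sensor, had 3.65, 4.198 and 4.44 CPM in SEN 1 to 3 and 5.14, 4.96 and 5.17 CPM in BNPMT 1 to 3, and 7.88, 7.56 and 7.26 CPM in NC. It was not called under TMM (change -0.19 ± 0.12, adjusted p = 0.153) and was higher with total counts (0.32 ± 0.12, adjusted p = 0.022). Sting1, its adaptor, had 6.199, 6.34 and 7.58 CPM in SEN 1 to 3 and 13.5, 14.6 and 10.6 CPM in BNPMT 1 to 3 (change 0.44 ± 0.13 under TMM (adjusted p = 0.00792) and 0.94 ± 0.13 by total counts (adjusted p = 1.6e-05)). After removal of the length trend the change of Sting1 was 0.18 (adjusted p = 0.217). Tlr9, the endosomal DNA sensor, had 6 counts summed over SEN and 0 over BNPMT, which is too few for a test. Samhd1 fell from 12.3 to 2.35 CPM (-2.90), and the inflammasome adaptor gene Pycard rose from 0.887 to 5.04 CPM (2.03). The nuclease genes Dnase2 and Rnaseh2b and the DNA-binding alarmin gene Hmgb1 rose from 24.1 to 58.8 CPM, from 7.0003 to 25.02 CPM and from 60.5 to 138 CPM (0.78, 1.33 and 0.69). Of interferon-stimulated genes, 13 of 32 tested members were higher and 7 lower under TMM (median 0.30), and 19 were higher and 2 lower with total counts (median 0.80). The share higher was 40.6% and 59.4% with the 2 scalings, near the 40.7% and 57.3% of all tested genes. The share lower was 21.9% and 6.25%, beside 39.9% and 25.8%. Members ranged from -1.38 to 2.66 under TMM, and the 4 named next are among those that rose. Parp14 and Stat2 rose from 3.05 to 27.3 CPM and from 17.7 to 50.5 CPM (2.66 and 1.01). Ifit2 and Irf9, which joins the STAT proteins downstream of interferon, rose from 3.16 to 15.3 CPM and from 8.51 to 26.8 CPM (1.78 and 1.15). The chemokine gene Cxcl10, also induced by interferon and counted with the secreted factors, had 75.4, 78.7 and 70.98 CPM in SEN 1 to 3 and 0.478, 0.9403 and 0.548 CPM in BNPMT 1 to 3 (change -7.37 ± 0.17 under TMM).

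**Figure D4:**
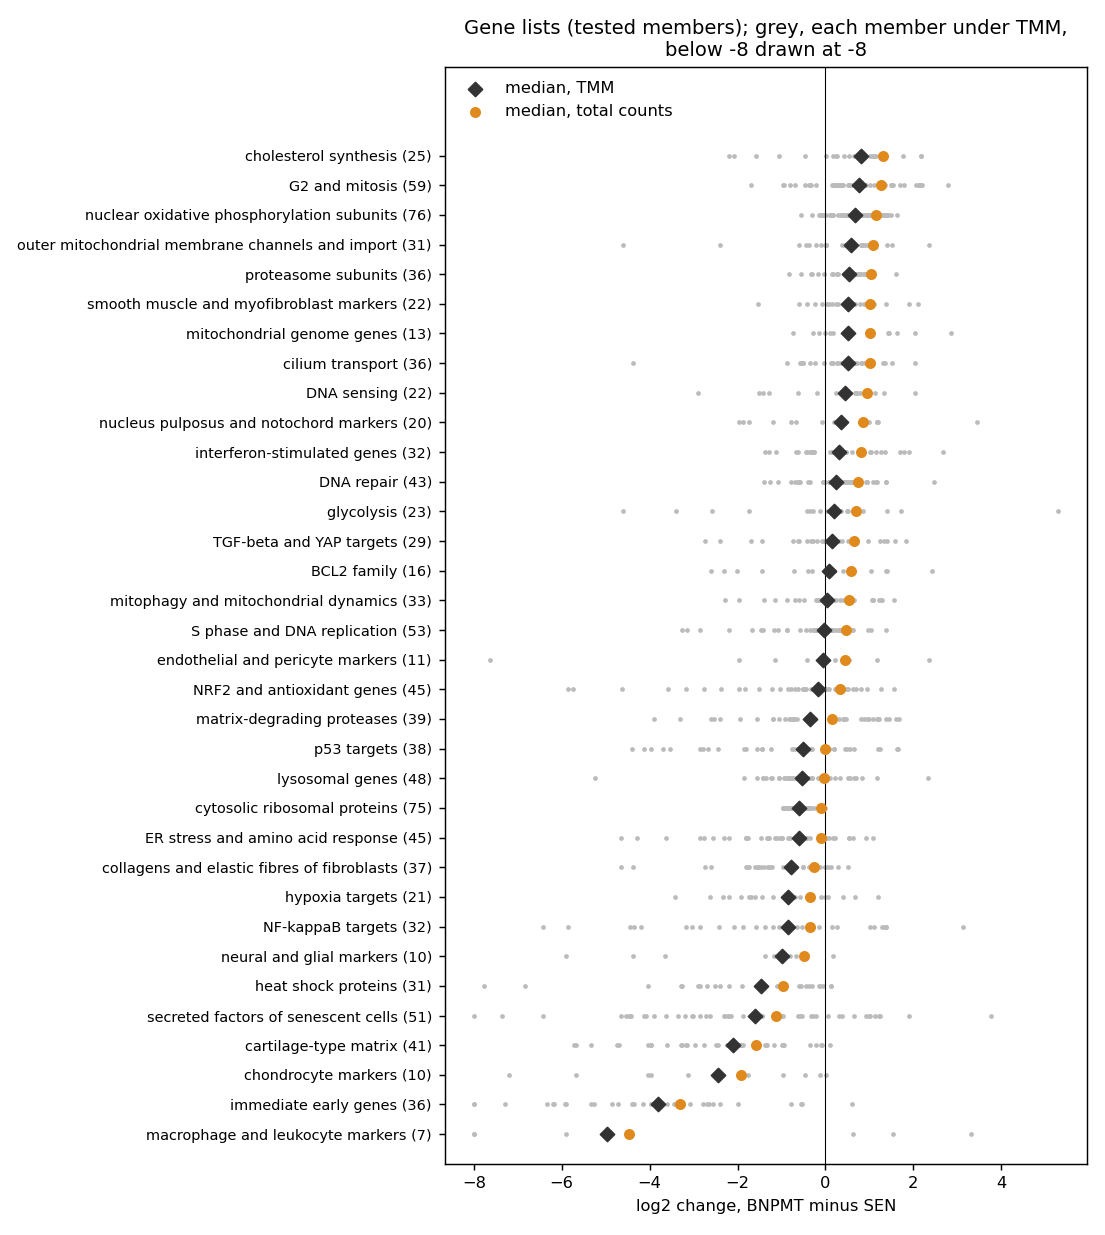
Log2 change from SEN to BNPMT (horizontal axis) of each tested member of the gene lists with 5 or more tested members (grey points, TMM) with the list's median under TMM (dark diamonds) and with total counts (orange circles). Cholesterol synthesis and G2 and mitosis stand at the top and immediate early genes near the bottom, and the medians of p53 targets, lysosomal genes and cytosolic ribosomal proteins lie below 0 under TMM and near 0 with total counts.

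Genes of metabolism moved by pathway. Of cholesterol synthesis genes, 19 of 25 tested members were higher and 5 lower under TMM (median 0.80), and 20 were higher and 4 lower with total counts (median 1.30). Fdft1, which makes squalene, had 34.04, 30.8 and 32.3 CPM in SEN 1 to 3 and 204, 206 and 214 CPM in BNPMT 1 to 3, and 133, 131 and 129.7 CPM in NC, so that BNPMT was the highest group. Its change was 2.18 ± 0.058 under TMM (adjusted p = 5.89e-13) and 2.68 ± 0.057 by total counts (adjusted p = 1.38e-13). Fdps and Dhcr7 went from 191 to 915 CPM and from 15.4 to 98.5 CPM (changes 1.76 and 2.18). Acat2 went from 109.5 to 390.2 CPM (1.33). Members that fell under TMM included Insig1, a feedback regulator of sterol synthesis (1563 to 483 CPM, -2.20), Idi1 (-2.08) and Msmo1 (-0.47, and 0.04 with total counts). In glycolysis, 13 of 23 tested members were higher and 7 lower under TMM (median 0.20), and 17 were higher and 4 lower with total counts (median 0.70). After removal of the length trend 8 were higher and 9 lower (median -0.09). Slc16a3, the lactate exporter MCT4, had 0.938, 1.22 and 0.82004 CPM in SEN 1 to 3 and 54.1, 56.7 and 53.6 CPM in BNPMT 1 to 3, and 4.23, 4.45 and 4.896 CPM in NC. Its change was 5.29 ± 0.12 under TMM (adjusted p = 1.06e-13) and 5.80 ± 0.12 by total counts (adjusted p = 7.77e-14), the second largest rise under the naming rule. Ldha, which makes lactate, went from 601 ± 32.5 to 1529 ± 85.3 CPM (0.85), with 538 ± 4.54 in NC, whereas Slc16a1, the related transporter MCT1, fell from 439.96 to 58.8 CPM (-3.41). The enzyme genes Aldoc and Pfkl rose from 13.4 to 62.4 CPM and from 42.9 to 162 CPM (1.72 and 1.41). Of hypoxia targets, 3 of 21 tested members were higher and 15 lower under TMM (median -0.85), and 6 were higher and 14 lower with total counts (median -0.35). Epas1, which encodes HIF-2 alpha, and Vegfa changed by -3.42 and -2.62. Ndrg1 and Ddit4, an inhibitor of mTORC1 that also stands in the amino acid response list, went from 348 to 130.3 CPM and from 148 to 45.8 CPM (-1.92 and -2.20).

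The calls of cytosolic ribosomal protein genes depended on the scaling. All but 1 of the 75 tested were lower under TMM (74, median -0.60), and with total counts 20 were lower and 2 higher (median -0.10). Rplp0 had 3815, 3484 and 3508 CPM in SEN 1 to 3 and 2331, 2745 and 2706 CPM in BNPMT 1 to 3 (change -0.98 ± 0.069 under TMM and -0.47 ± 0.063 with total counts), and Rpl4 had 1939, 1709 and 1731 CPM in SEN 1 to 3 and 1502, 1769.7 and 1738 CPM in BNPMT 1 to 3 (-0.60 ± 0.073 and -0.10 ± 0.067, the latter with an adjusted p of 0.171). Their share of counts was 7.18% ± 0.616 in SEN and 6.5% ± 0.763 in BNPMT (exact 2-sided permutation p = 0.5), and ribosomal protein genes have many pseudogene copies that could share reads. Of proteasome subunits, 30 of 36 tested members were higher and 5 lower under TMM (median 0.54), and 34 were higher and 1 lower with total counts (median 1.04); Psmb6, a catalytic subunit, went from 27.4 to 118 CPM (1.61). Of lysosomal genes, 9 of 48 tested members were higher and 36 lower under TMM (median -0.53), and 16 were higher and 22 lower with total counts (median -0.03); Npc1, which exports cholesterol from lysosomes, and Lamp2 changed by -1.56 and -1.36. The enzyme genes Gla, Man2b1 and Ctsd, the last of which encodes cathepsin D, changed by -1.85, -1.42 and -1.21. Of genes of transport in the primary cilium, 25 of 36 tested members were higher and 8 lower under TMM (median 0.51), and 29 were higher and 2 lower with total counts (median 1.01); Bbs1 and Kif3b rose from 3.06 to 17.9 CPM and from 13.2 to 47.3 CPM (2.04 and 1.34). Ift172 and Ift22 rose from 7.05 to 24.9 CPM and from 4.27 to 17.2 CPM (1.32 and 1.51).

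The largest single changes were in genes outside most of these lists. Among genes of at least 5 CPM on average, Gja5, the gap junction protein connexin 40, had the largest rise, with 0.2605, 0.0961 and 0.198 CPM in SEN 1 to 3 and 16.8, 16.4 and 15.2 CPM in BNPMT 1 to 3, and 11.4, 12.3 and 11.2 CPM in NC (change 5.88 ± 0.18 under TMM (adjusted p = 3.29e-12) and 6.38 ± 0.18 by total counts (adjusted p = 1.93e-12)). The other rises, in order after Slc16a3, were the keratin gene Krt7 (0.888 to 37.4 CPM, 4.85), the ciliary transport gene Ift70b (0.457 to 17.1 CPM, 4.68), Gdf5, a growth factor of joints and discs (0.478 to 16.1 CPM, 4.60), then Pars2 and Oma1, and Irag1 (3.74), Cd200r1 (3.68) and Atoh8 (3.68). Each of these genes was above 7 CPM in NC except Slc16a3. The largest falls were of genes almost uncounted in BNPMT. Ceacam19 had 2867 counts over the SEN libraries and 1 over the BNPMT libraries, a ratio per total count of 3250 with a 95% counting interval of 582 to 128000. Pou3f1, a POU domain factor, had 2688 and 2 counts (ratio 1520, interval 421 to 12600), Cimap2 3048 and 3 (1150, 393 to 5580) and Stpg3 1477 and 2 (836, 231 to 6910). Trim72, a membrane repair protein of muscle, had 82.9, 75.2 and 72.6 CPM in SEN 1 to 3 and 0, 0.0855 and 0.191 CPM in BNPMT 1 to 3 (change -10.15 ± 0.22 under TMM). Rab44, Btk, a kinase of B cells, and Slc16a10, a transporter of aromatic amino acids, changed by -9.68, -9.67 and -9.47, and Egr4 and Fosb complete the 10 largest falls. Single libraries moved several of these changes by more than 1.5-fold: without BNPMT 1 they were -9.52 for Trim72, -9.08 for Rab44, -9.32 for Egr4 and -10.53 for Slc16a10, without BNPMT 3 -11.31 for Trim72, without SEN 1 5.46 for Krt7 and without SEN 3 5.01 for Pars2. Without BNPMT 3, which held all their BNPMT counts, Ceacam19 changed by -13.32 and Pou3f1 by -13.22. Of the 10 largest falls, all but Fosb were under 1 CPM in NC.

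The 5 most abundant genes with opposite calls were COX1, Ccdc80, a matrix protein (-0.31 ± 0.047 under TMM and 0.19 ± 0.047 with total counts), the ubiquitin ligase gene Nedd4 (-0.25 ± 0.066 and 0.26 ± 0.07), the tubulin gene Tubb5 (-0.31 ± 0.054 and 0.19 ± 0.051) and Cd63, a tetraspanin of endosomes (-0.30 ± 0.08 and 0.20 ± 0.075). All 5 had a higher CPM in BNPMT than in SEN and a negative change under TMM. The 5 most abundant genes called under TMM alone were Fn1, the collagen chaperone gene Serpinh1 (-0.62 ± 0.06 under TMM and -0.12 ± 0.055 with total counts), the ferritin light chain Ftl1 (-0.52 ± 0.071 and -0.01 ± 0.066), Rpsa (-0.60 ± 0.088 and -0.10 ± 0.082) and Rpl4, all lower. Vimentin (Vim) was among the 5 largest gains in CPM, at 6959 ± 373 in SEN and 9565 ± 457 in BNPMT, and its change was -0.04 ± 0.059 under TMM (adjusted p = 0.503) and 0.46 ± 0.054 by total counts (adjusted p = 2.38e-06). With a trend of change with transcript length taken out Vim was called lower (-0.33, adjusted p = 8.65e-09). Without SEN 1 and BNPMT 1 it was called higher under TMM (0.06, adjusted p = 0.0336).

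The change also moved with transcript length. In 5 bins of equal size from the shortest to the longest transcripts, the median change under TMM was 0.27, 0.20, 0.11, -0.10 and -0.39, and with total counts 0.77, 0.70, 0.62, 0.40 and 0.11. In the shortest bin (median 1202 bases) 48.5% of genes were higher and 30.8% lower under TMM, and in the longest (median 8806 bases) 26.7% and 53.9%. Libraries of 1 group also differed by length: the deviation of a library from its group's mean correlated with length across genes (Spearman) at -0.41, 0.26 and 0.23 in SEN 1 to 3 and at 0.50, -0.43 and -0.31 in BNPMT 1 to 3. Genes share their library and its read lengths and are not independent replicates, so these are descriptions. After a trend of the libraries with length was removed, 5892 genes were higher (39.4%) and 6304 lower (42.2%). Without SEN 1 and BNPMT 1, 11488 of the 12032 called genes that could be tested kept their direction and call.

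**Figure D5:**
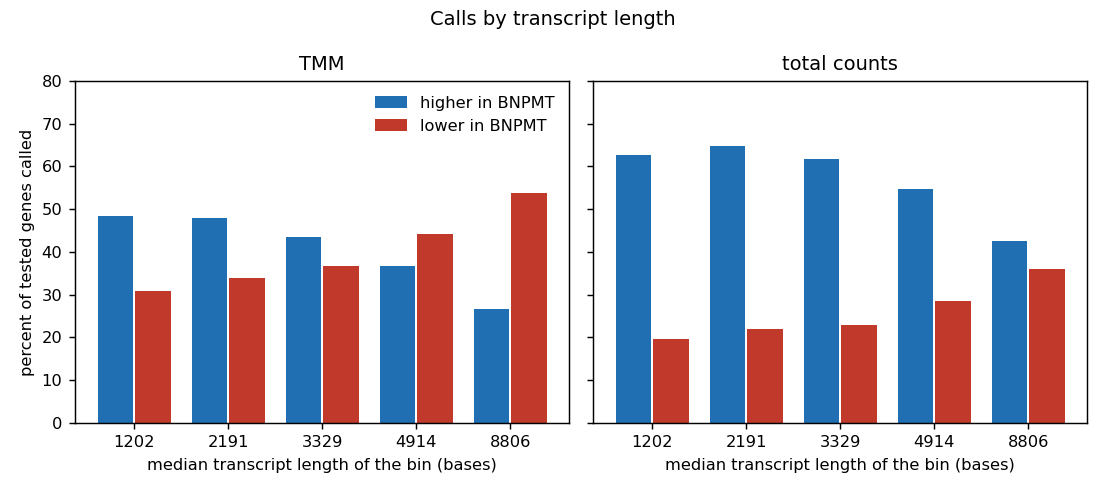
Percent of tested genes called higher (blue) and lower (red) in BNPMT in 5 bins of transcript length (horizontal axis, median length in bases), under TMM (left) and with total counts (right). From the shortest to the longest bin the share called higher goes from 48.5% to 26.7% under TMM and from 62.8% to 42.6% with total counts.

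Markers of other cell types were counted in the same libraries. Of 13 macrophage and leukocyte markers in the table, 7 were tested, 4 lower and 3 higher with both scalings, and their summed level was 37.6 to 41.5 CPM in SEN, 19.5 to 21.3 in BNPMT and 14.8 to 15.9 in NC. Tyrobp and Adgre1 were at 0 in all 6 libraries. Cd68, a lysosomal protein of macrophages and other cells, had 22.1, 21.1 and 24.6 CPM in SEN 1 to 3 and 0.407, 0.484 and 0.691 CPM in BNPMT 1 to 3 and was the main part of that sum in SEN, whereas Itgam, at 3.97 ± 0.0132 CPM in SEN, had no count in BNPMT (at least 52.1-fold lower). The 3 markers that rose were Cd14, a co-receptor for bacterial lipopolysaccharide, with 4.06, 4.01 and 4.04 CPM in SEN 1 to 3 and 15.8, 17.9 and 16.2 CPM in BNPMT 1 to 3, Laptm5 (1.19 to 2.601 CPM, 0.62) and Fcer1g (0.0496 to 0.708 CPM, 3.32). Cd14 changed by 1.54, had 11.8, 11.4 and 11.1 CPM in NC and was the main part of the sum in BNPMT. The call of Laptm5 under TMM was lost without SEN 3 (adjusted p = 0.0532), without BNPMT 3 (0.0757) and after removal of the length trend (0.109), and Fcer1g changed by 2.70 without SEN 1. Of neural and glial markers, 8 of 10 were lower and 0 higher under TMM (median -0.99), and 5 and 0 with total counts (median -0.49), with a summed level of 416 to 423 CPM in SEN, 348 to 349 in BNPMT and 348 to 358 in NC. The neurofilament genes Nefl and Nefm went from 10.5 to 0.251 CPM and from 24.7 to 1.68 CPM (-5.90 and -4.39). Of endothelial and pericyte markers, 5 of 11 were higher and 2 lower with both scalings, with a summed level of 179 to 198 CPM in SEN, 293 to 337 in BNPMT and 344 to 357 in NC, and Cdh5 had 2 counts over SEN and 0 over BNPMT. The median change of this endothelial and pericyte list was -0.06 under TMM and 0.44 with total counts, and its members ranged from -7.63 to 2.35 under TMM. Among those that rose were the pericyte channel genes Kcnj8 and Abcc9, from 1.62 to 11.8 CPM and from 12.7 to 25.04 CPM (2.35 and 0.48). No erythroid marker passed the filter. The part of other cell types in the changes of the secreted factor, NF-kappaB and lysosomal lists was not tested.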

How the data were processed

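Poly(A) RNA was extracted with TRIzol and made into libraries with the VAHTS Universal V6 kit, per the labels. The build mRatBN7.2 and the tools HISAT2, HTSeq and fastp are named, without versions, in the submitters' processing notes. Which annotation was used and whether strand was counted is not given in the sources used here; overlapping and antisense genes may therefore share reads. The authors deposited whole-number counts per gene and FPKM values. The deposited FPKM values are counts divided by gene length and library total (largest relative difference 6.66e-16), from which transcript lengths were derived. No pair of libraries was a duplicate (chi-square per degree of freedom 3.46 to 32.7 within groups). Results come from the counts, with edgeR 4.0.16 in R 4.3.3: filterByExpr, then its quasi-likelihood F test with the 9 libraries as 3 groups, with TMM factors or with total counts, Benjamini-Hochberg adjusted over 14956 genes, at a threshold of 0.05. Adjusted p-values are from that test; ± is the SD over libraries for levels and the standard error for log2 changes. CPM values are per total count. A count of 3 was the floor for a gene without counts, and floors and intervals cover counting error only.

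The members and the 35 gene lists were chosen with earlier results of these data known, so lists get counts and medians but no test. Named genes were fixed genes of senescence, matrix and mitochondria, the 10 largest rises and falls under TMM (no placeholder name, called alike with both scalings, at least 5 CPM on average, no overlap), in each list up to 4 members of its main direction, by adjusted p, the 5 most abundant genes with opposite calls or called under TMM alone, the 5 highest genes at 0 in the other group, and the 5 largest gains and losses in CPM. A further 50 list members were chosen as examples after their values were seen. Some genes that these rules name are not reported here. Alternatives used limma 3.58.1 and DESeq2 1.42.0, other factors and filters, and fewer libraries. The edgeR test was also run on simulated data, with far fewer changed genes than were called here and equal numbers of rises and falls. That run therefore does not show how either scaling behaves on these data.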

Additional observations from a re-analysis of the deposited data

How the results depend on the processing

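The count of genes called higher in BNPMT (6092 under TMM) stayed within 1.5 times under all 24 alternatives except a test against a 2-fold minimum change (1819). The count of genes called lower (5969) moved by more with total counts (3857), under limma with log2(FPKM + 1) (3782) or log2(FPKM + 0.1) (3829), which also scale by total counts, and with the 2-fold minimum (2737). With upper quartile factors 6678 were higher and 5415 lower, with DESeq2 size factors 5734 and 6270, with DESeq2 5708 and 6251, and after removal of the length trend 5892 and 6304. Leaving out 1 library in turn gave 5922 to 6138 higher and 5834 to 6161 lower under TMM, and 8379 to 8562 and 3736 to 4153 with total counts. SEN and BNPMT libraries of the same number did not deviate together (correlations -0.18, -0.05 and -0.03). This cannot exclude a pairing by number, since the deviations also moved with transcript length. With a replicate block, 5429 genes were higher and 5505 lower under TMM, and 8014 and 3473 with total counts. Among named genes, the calls lost with the block were those of Adamts5, Bax, Tfam, COX1 and Laptm5 (adjusted p = 0.0506, 0.17, 0.181, 0.145 and 0.0609).

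Of 240 named genes tested, 182 kept their direction and side of the threshold in all 24 alternatives. Scaling by total counts turned the negative TMM change of 10 genes positive, and DESeq2 size factors and upper quartile factors reversed no called change (Vdac2 and Vim stood at 0.09 and 0.07 with upper quartile factors, not called). With total counts and with limma on log2(FPKM + 1) and log2(FPKM + 0.1) the changes were 0.48, 0.48 and 0.48 for Vdac2, 0.32, 0.13 and 0.28 for Cgas, 0.35, 0.34 and 0.34 for COX1, 0.19, 0.19 and 0.19 for Ccdc80, 0.26, 0.25 and 0.25 for Nedd4, 0.19, 0.20 and 0.20 for Tubb5, 0.20, 0.20 and 0.20 for Cd63, 0.46, 0.46 and 0.46 for Vim, 0.20, 0.19 and 0.19 for Cox4i1 and 0.04, 0.03 and 0.03 for Msmo1. After removal of the length trend, Bax changed by -0.08, Tfam by -0.12 and Nedd4 by 0.01. Vdac2 and Vim, not called under TMM, were called lower after that removal (-0.29 and -0.33, adjusted p = 3.39e-06 and 8.65e-09). Without SEN 1 and BNPMT 1, Vim was called higher under TMM (0.06, adjusted p = 0.0336). Genes under about 0.1 CPM lie at or below the value of 3 counts, so their changes rest on few counts.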

Other observations

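Genes with counts in 1 group and none in the other were more often silent in BNPMT than in SEN. Of all genes in the table, 2679 had no count in any BNPMT library and at least 1 in SEN, and 789 had none in SEN and at least 1 in BNPMT. More than 3 counts in every library of the group with counts were reached by 309 and 11 of them. The 5 named genes with the highest SEN level among those at 0 in BNPMT were Garin5b, with 8.23, 8.91 and 10.5 CPM in SEN 1 to 3 and 0, 0 and 0 CPM in BNPMT 1 to 3 (at least 121-fold lower in BNPMT against a floor of 3 counts per library), Gpr50, an orphan receptor related to the melatonin receptors (7.89 CPM in SEN, at least 103-fold lower), Esx1, a homeobox factor of placenta and testis (7.33 CPM, at least 96.2-fold lower), Tbx21, which encodes the T cell factor T-bet (7.01 CPM, at least 91.9-fold lower), and Smim47 (6.31 CPM, at least 82.8-fold lower). In NC these 5 genes averaged between 0 and 0.00966 CPM. The 5 with the highest BNPMT level among those at 0 in SEN were the phosphatase gene Ptprb (0, 0 and 0 CPM in SEN 1 to 3 and 1.05, 0.741 and 0.334 CPM in BNPMT 1 to 3, at least 8.21-fold higher), Ms4a6c (0.557 CPM in BNPMT, at least 6.45-fold higher), Gprin1 (0.529 CPM, at least 6.13-fold higher), Siglec15 (0.329 CPM, at least 3.81-fold higher) and Snx20 (0.261 CPM, at least 3.02-fold higher, not among the tested genes). In NC, Ptprb averaged 1.11 CPM and Gprin1 0.566 CPM.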
